A study of Mus musculus with 14 samples.

Results

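The genes described here are 37 mouse genes whose human counterparts carry risk for autism, out of 27144 genes in the RNA immunoprecipitation (RIP) table, 27998 in the culture tables and 12470 shared by both tables of fresh cells. They were given as a fixed list of gene names, chosen with earlier results of these data known. Counts of members beside all genes therefore describe this list and are not independent support. They code for 8 histone methyl enzymes, 9 chromatin remodellers, readers and partners, 3 coregulators, 5 DNA-binding transcription factors, 3 ubiquitin pathway proteins, 2 signalling proteins and 7 proteins of synapses, adhesion and neurons. Of the 37 genes, 36 had a line in the RIP table and all 37 in the culture tables. In fresh cells, 33 were in both tables. Adnp was not analysed in the RIP libraries, Adnp, Zbtb20 and Shank3 were not analysed in fresh cells, and Cntn4 had a line only in the wildtype fresh table.

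The series holds 14 samples of neural stem cells from the adult mouse subventricular zone, the germinal layer beside the lateral ventricles. Neurospheres, which are floating cultures of neural stem and progenitor cells, gave CPEB4 antibody precipitates from cells labelled CPEB4-/- (2 libraries) and from wildtype cells (2), and IgG control precipitates (2) and input RNA (2) from wildtype cells. Single-cell libraries came from wildtype cells cultured with BMP4 or with EGF (1 library each, 3 days each), and from fresh cells of APLP1-/- and wildtype mice (1 library each). A hash tag library for each of the fresh pair marked the cells of individual mice with 3 antibody-linked tags. The labels used here give neither strain nor sex, and they do not say whether RIP replicates were separate cultures, so the p-values measure only the spread between these libraries.

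CPEB4 is an RNA-binding protein that recognises cytoplasmic polyadenylation elements in the 3′ untranslated region of mRNAs and controls the length of their poly(A) tails and their translation. Autism risk mRNAs have been reported as CPEB4 targets in the brain, and many of these genes code for regulators of chromatin and transcription that act while neurons form. IgG precipitates measure RNA that is recovered without a specific antibody, and input measures RNA before precipitation.

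The RIP libraries held between 10054346 and 17466296 counts. The 10 most abundant genes took 32.0% to 64.2% of the counts in the precipitates and 3.92% to 4.50% in the inputs. RIP levels are therefore given as CPM, counts scaled to the library size after edgeR's TMM adjustment, whose factors ran between 0.428 and 2.86. Cpeb4, the gene that is deleted in the knockout per the labels, had 4825 and 1285 counts in the CPEB4 precipitates labelled knockout, 3109 and 1025 in the wildtype CPEB4 precipitates, 239 and 755 in IgG and 808 and 628 in input. It was not lower in the libraries labelled knockout, so these are called knockout-labelled throughout. No input library was labelled knockout, and counts in precipitates depend on recovery, so the Cpeb4 counts do not settle the genotype. The 10 oligodendrocyte markers, in CPM of the total counts, summed to between 140 and 192 in the 6 precipitates and to 4787 and 5505 in the inputs, with at most 2 of them at 0 in a library. The 14 quiescent NSC/astrocyte markers were also lower, at 258 to 823 in the precipitates and 3606 and 3292 in the inputs. Microglia/macrophage markers went the other way, at 352 to 1211 in the precipitates and 128 and 107 in the inputs (8 markers, 1 to 4 at 0). The 9 mature neuron markers, of which 1 to 4 were at 0 in a library, summed to 610 and 101 in knockout-labelled CPEB4 precipitates, 601 and 527 in wildtype CPEB4 precipitates, 101 and 117 in IgG and 380 and 153 in input. The part of these shifts in the results was not tested. Input is RNA before precipitation, so marker sums in the precipitates depend on recovery and are no measure of the cells present.

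The first comparison asked which members were recovered with CPEB4 antibody beyond their level in input RNA. In wildtype neurospheres 28 of the 36 members were higher in CPEB4 precipitates than in input and 1 was lower, with a median log2 fold change of 2.41 (edgeR quasi-likelihood test, adjusted p under 0.05). Over all 17062 genes tested the share called higher was 27.4%, the share called lower was 27.6% and the median was -0.09. At an unadjusted p under 0.05, 31 members were higher and 1 lower, against 30.1% and 31% of all genes. Both CPEB4 libraries lay above both inputs for 35 of the 36 members and below them for 1, against 40.2% and 43.2% of all genes. All 5 DNA-binding transcription factors, all 3 coregulators and 7 of 8 histone methyl enzymes were higher, as were 5 of 8 chromatin genes, 5 of 7 synaptic and neuronal genes, 2 of 3 ubiquitin pathway genes and 1 of 2 signalling genes. Of the 5 factors, Myt1l passed the filter on low counts only through the CPEB4 precipitates.

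Grin2b, the gene of an NMDA glutamate receptor subunit, had 13.2 and 10.8 CPM in CPEB4 precipitates, 6.05 and 2.88 CPM in IgG and 0.381 and 0.348 CPM in input. Both precipitates of either kind lay above both inputs. On the log2 scale CPEB4 precipitates exceeded input by 5.02 (SE 0.75, edgeR adjusted p = 0.000996), the largest among the members.

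Auts2, a gene of a nuclear protein that associates with Polycomb complexes in neurons, had 686 and 501 CPM in CPEB4 precipitates, 217 and 252 CPM in IgG and 25.4 and 13.5 CPM in input. Its levels stood in that order in every library. CPEB4 precipitates over input gave a log2 fold change of 4.93 (SE 0.67, edgeR adjusted p = 0.00073).

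Dscam, which codes for a cell adhesion molecule of neurons, had 235 and 176 CPM in CPEB4 precipitates, 70.5 and 149 CPM in IgG and 10.5 and 8.20 CPM in input. Zbtb20, a transcription factor gene of the developing hippocampus and astrocytes, had 568 and 369 CPM in CPEB4 precipitates, 232 and 285 CPM in IgG and 23.6 and 19.4 CPM in input. For both genes the CPEB4 and IgG libraries were far above the inputs, and the CPEB4 libraries lay above those of IgG. Their log2 fold changes over input in CPEB4 precipitates were 4.46 for Dscam (SE 0.80, edgeR adjusted p = 0.00187) and 4.45 for Zbtb20 (SE 0.58, edgeR adjusted p = 0.000644).

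The next 4 members by size were Myt1l (log2 4.08), Foxp1 (3.80), Tcf20 (3.33) and Kmt2c (3.14). Myt1l codes for a neuronal zinc finger factor, Foxp1 for a forkhead transcription factor, Tcf20 for a transcriptional coregulator and Kmt2c for a histone H3 lysine methyltransferase. Myt1l was scarce, with 16 and 25 counts in CPEB4 precipitates, 4 and 2 in IgG and 4 and 4 in input. It passed the filter on low counts only through the CPEB4 precipitates, where it was high. Its rank and its calls over input are therefore no support. Foxp1 had 46.8 and 35.2 CPM in CPEB4 precipitates, 19.8 and 25.8 CPM in IgG and 3.17 and 2.69 CPM in input. For Myt1l and Foxp1 the CPEB4 libraries lay above the IgG libraries and the inputs by CPM. Tcf20 had 81.1 and 100.2 CPM in CPEB4 precipitates, 66.3 and 85.0 CPM in IgG and 8.48 and 9.60 CPM in input, and Kmt2c had 329 and 253 CPM in CPEB4 precipitates, 155 and 217 CPM in IgG and 43.2 and 22.6 CPM in input. The CPEB4 and IgG ranges overlapped for Tcf20 and not for Kmt2c.

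Reln, which codes for the secreted glycoprotein reelin, had 3.62 and 5.78 CPM in CPEB4 precipitates, 4.65 and 4.48 CPM in IgG and 1.16 and 0.973 CPM in input. The 2 kinds of precipitate overlapped, and all 4 libraries lay above the inputs. CPEB4 precipitates over input gave a log2 fold change of 2.13 (SE 0.49, edgeR adjusted p = 0.0052).

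Ctnnb1, which codes for the adhesion and Wnt pathway protein beta-catenin, was the member that was lower. It had 81.9 and 87.3 CPM in CPEB4 precipitates, 169 and 150 CPM in IgG and 271 and 289 CPM in input, so that its levels ran in the opposite order to most members. CPEB4 precipitates over input gave a log2 fold change of -1.73 (SE 0.47, edgeR adjusted p = 0.012), and the call was lost without wildtype CPEB4 replicate 1 and without replicate 2. The 7 members that passed in neither direction were Kdm6b, Chd8, Pogz, Asxl3, Cul3, Shank3 and Cntn4.

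IgG precipitates were compared with input to measure the same quantity with a control antibody. Here 24 of the 36 members were higher and 0 lower, with a median log2 fold change of 1.85 (edgeR adjusted p under 0.05). The 24 include Myt1l (edgeR adjusted p = 0.0493), which had 4 and 2 counts in IgG and 4 and 4 in input. With only IgG and input fitted, 35 members passed the filter, without Myt1l. Over all genes 18.2% were higher, 15.6% were lower and the median was -0.13. At an unadjusted p under 0.05, 29 members were higher and 0 lower, against 23.5% and 23.7% of all genes. DESeq2 called 26 members higher and 0 lower, against 18.4% and 13.8% of the genes to which it gave an adjusted p. Both IgG libraries lay above both inputs for 33 of 36 members and below them for 1, against 34.8% and 41.3% of all genes. Cntn4, the gene of the neuronal adhesion protein contactin 4, had 6.28 and 54.0 CPM in IgG and 1.80 and 1.30 CPM in input, with the largest fold change of the members (log2 4.28, SE 1.25, edgeR adjusted p = 0.0277). The IgG library of replicate 2 held most of that rise. The count of 24 dropped to 13 without IgG replicate 1, 6 without IgG replicate 2, 8 without input replicate 1 and 5 without input replicate 2. In the same 4 fits the share of all genes called higher dropped to 9.57%, 5.5%, 6.36% and 5.7%. The 2 comparisons with input share the input libraries.

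**Figure D1:**
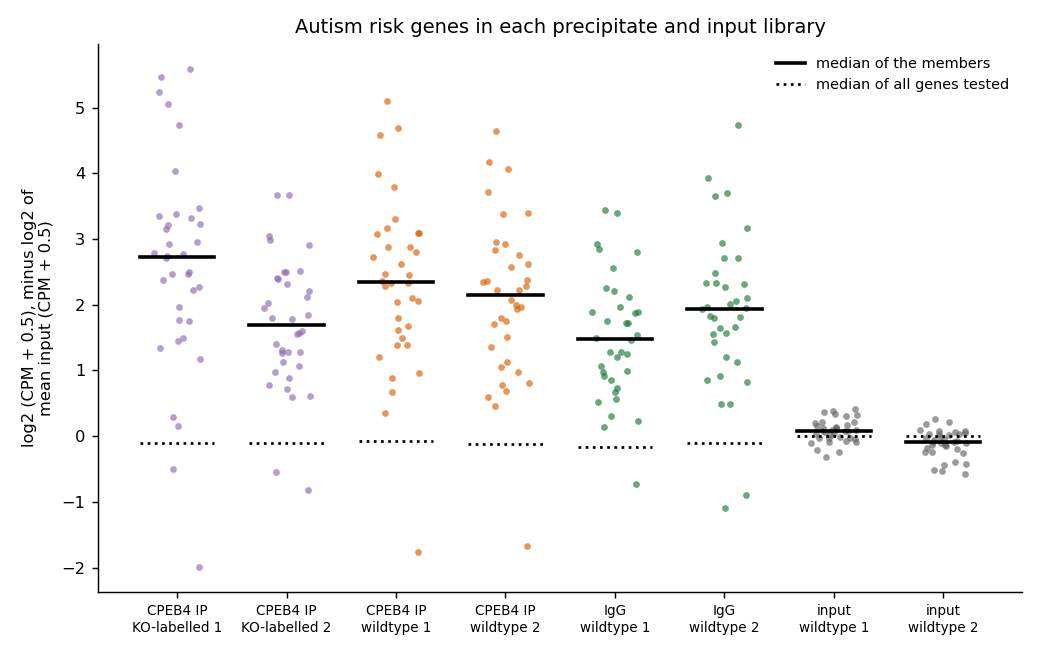
Each point is 1 of 36 autism risk genes in 1 RIP library (x axis), as log2 (CPM + 0.5) minus log2 of the mean input (CPM + 0.5) (y axis). Solid bars are the medians of the members, at 2.73 and 1.69 in knockout-labelled CPEB4 precipitates, 2.35 and 2.15 in wildtype CPEB4 precipitates and 1.48 and 1.94 in IgG, and dotted bars, the medians of all genes, lie between -0.17 and 0.00.

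These medians depend on how libraries are scaled. With total library size in place of TMM, the median of all genes was -1.57 in CPEB4 precipitates over input, -2.62 in IgG over input and 1.02 in CPEB4 precipitates over IgG, and that of the members was 0.92, -0.64 and 1.46. Relative to the median of all genes, the members stood 2.50 higher with TMM and 2.49 with total library size in CPEB4 precipitates over input. In IgG over input the same difference was 1.98 and 1.97. With total library size 6 of 36 members were called higher in CPEB4 precipitates over input, against 6.38% of all genes. In IgG over input 0 of 36 were then called higher and 6 lower, against 2.5% and 65.5% of all genes.

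The comparison of CPEB4 precipitates with IgG asked for recovery beyond that of the control antibody. No member passed the threshold in either direction (0 higher, 0 lower), and over all 17062 genes the share called was 0% each way. At an unadjusted p under 0.05, 3 members were higher (Bcl11a, Auts2 and Shank2) and 0 were lower, against 3.08% of all genes higher and 4.89% lower. DESeq2 called 0 of the 31 members to which it gave an adjusted p, and gave none to Bcl11a, whose unadjusted p there was 0.00148. The members' median log2 fold change was 0.46, against 0.00 for all genes. Both CPEB4 libraries lay above both IgG libraries for 20 of 36 members and below them for 1, against 25% and 27.9% of all genes. On the log2 scale the difference was 1.34 for Auts2 (SE 0.58, edgeR adjusted p = 0.601), 1.45 for Grin2b (SE 0.67, adjusted p = 0.601), 0.86 for Zbtb20 (SE 0.51, adjusted p = 0.61) and 0.04 for Reln (SE 0.49, adjusted p = 0.983).

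Bcl11a, which codes for a zinc finger transcriptional repressor of neuronal development was singled out after its values were seen. It had 54 and 21 counts in knockout-labelled CPEB4 precipitates, 152 and 112 in wildtype CPEB4 precipitates, 17 and 5 in IgG and 118 and 95 in input. As CPM these were 2.59 and 4.09 in knockout-labelled and 11.0 and 8.87 in wildtype CPEB4 precipitates, 3.95 and 0.801 in IgG and 2.37 and 2.20 in input. Both wildtype CPEB4 libraries were above every other library by CPM, and the range of IgG overlapped those of the knockout-labelled precipitates and of input. The log2 fold change was 2.13 over IgG (SE 0.63, edgeR adjusted p = 0.601, unadjusted p = 0.00718), 2.12 over input (SE 0.58, adjusted p = 0.0114), and -0.01 for IgG over input (SE 0.63, adjusted p = 0.99). The adjusted p over IgG was 0.0374 with no filter on low counts, 0.0494 when only the CPEB4 and IgG libraries were fitted and 0.0667 without the knockout-labelled libraries, and between 0.3 and 1 in the other edgeR fits. Without IgG replicate 2 the log2 fold change over IgG was 1.33, and without IgG replicate 1 it was 3.62.

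Knockout-labelled CPEB4 precipitates were compared with wildtype ones, the control for antibody specificity. No member passed the threshold (0 higher, 0 lower; 0% of all genes each way), and DESeq2 called 0 members. At an unadjusted p under 0.05, Asxl3 was higher and Bcl11a lower, against 0.369% of all genes higher and 0.428% lower. Both knockout-labelled libraries lay above both wildtype ones for 1 of 36 members and below them for 2, against 5.75% and 7.71% of all genes. The members' median log2 fold change was -0.04, against 0.06 for all genes. For Bcl11a it was -1.62 (SE 0.59, edgeR adjusted p = 1, unadjusted p = 0.0211).

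The knockout-labelled replicates differed from each other. Across genes, the log2 CPM of replicate 1 correlated at r = 0.971 with wildtype CPEB4 replicate 1 and at 0.871 with its own replicate 2, while replicate 2 correlated at 0.956 with IgG replicate 1 and at 0.923 with wildtype CPEB4 replicate 1. Zbtb20 had 586 CPM in knockout-labelled replicate 1 and 279 CPM in replicate 2, Dscam 435 and 77.7 CPM, and Cntn4 98.3 and 4.48 CPM. Asxl3, a Polycomb-associated gene, had 18.6 and 0.974 CPM in them, against 2.24 and 2.45 CPM in wildtype CPEB4 precipitates. In each of these genes replicate 1 was higher than replicate 2. Bcl11a, Kdm6b, Chd8, Ctnnb1 and Shank3 went the other way, with 77.5 and 142 CPM for Chd8 and 70.2 and 158 CPM for Ctnnb1. With no filter on low counts, Asxl3 and Cntn4 were called higher in knockout-labelled precipitates (edgeR adjusted p = 0.04 and 0.000528), but without knockout-labelled replicate 1 both fold changes were negative (-1.29 and -1.17 on the log2 scale).

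**Figure D2:**
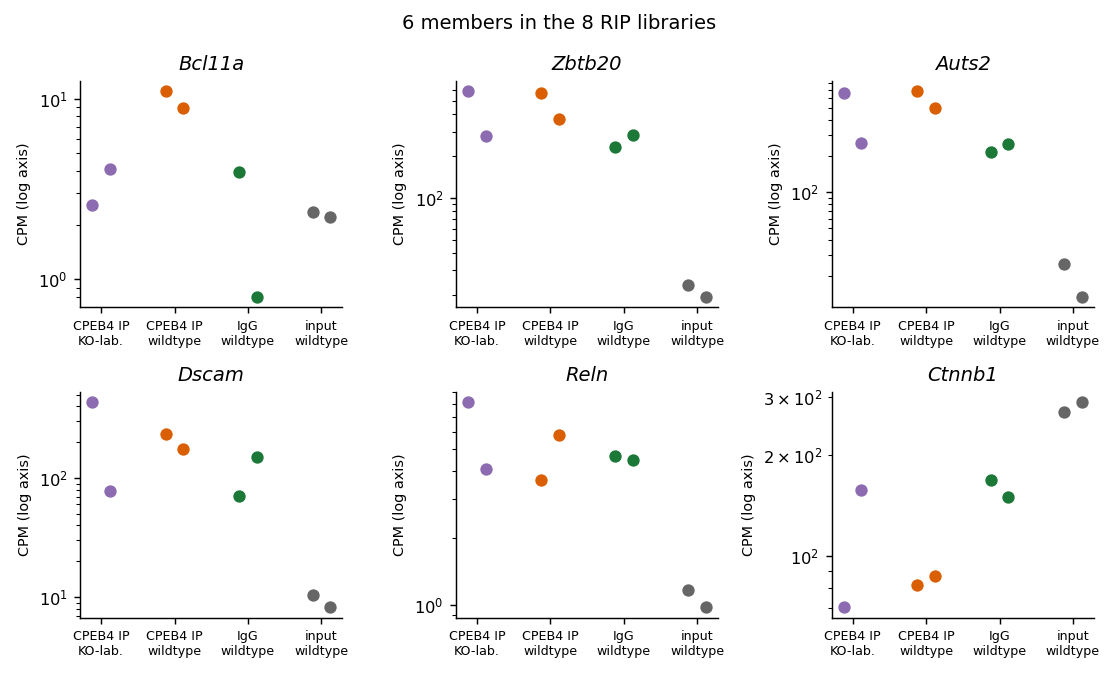
CPM on a log axis of 6 members in the 8 RIP libraries, 1 point per library, with knockout-labelled CPEB4 precipitates at left, then wildtype CPEB4 precipitates, IgG and input. Bcl11a was highest in the wildtype CPEB4 precipitates (11.0 and 8.87 CPM), and Ctnnb1 was highest in input (271 and 289 CPM).

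Gene span, the distance in bases between the start and end of a gene including its introns, was used as a measure of length because transcript lengths were not at hand. The 36 members are long genes, with a median span of 160000 bases, between 21860 bases (Kdm6b) and 1105888 bases (Auts2, GRCm38 chromosome 5, 131437333 to 132543220), against a median of 21607 bases over the 15524 tested genes with a span. With the genes in 5 equal bins of span, 29 of the 36 members were in the longest bin, and with 20 equal bins 13 were in the longest. Across genes, which are not independent replicates, Spearman's rho between span and log2 fold change was 0.64 in CPEB4 precipitates over input, 0.55 in IgG over input and 0.58 in CPEB4 precipitates over IgG. Across the 36 members it was 0.77, 0.75 and 0.52.

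In the longest of the 5 bins, 26 of 29 members were called higher in CPEB4 precipitates over input, against 73.4% of all genes in that bin, whose median log2 fold change was 2.03. In IgG over input 24 of 29 members were called higher, against 46% of the bin. Set against the median of their own bin among the 20, the members stood 0.49 higher in CPEB4 precipitates over input (24 of 36 above it) and 0.55 higher in IgG over input (25 of 36). In CPEB4 precipitates over IgG they stood at -0.02 (13 of 36 above it). Bcl11a was 1.66 above its bin in CPEB4 precipitates over IgG, and Cntn4 was 2.48 below.

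With an offset for gene span fitted in each library, 5 of 36 members were higher and 2 lower in CPEB4 precipitates over input, where 17% of all genes were called higher and 23.6% lower. The 5 were Grin2b (log2 1.91), Auts2 (1.16), Dscam (1.14), Tcf20 (1.06) and Ash1l (0.92), the last a histone methyltransferase gene. The 2 that were lower were Ctnnb1 (-1.72) and Ank2 (-1.25), which codes for ankyrin B, a membrane scaffold protein. In IgG over input the members higher were Tcf20 (1.45) and Ash1l (1.12), against 12.3% of all genes. The members' median log2 fold change under the offset was 0.48 in CPEB4 precipitates over input, 0.46 in IgG over input and -0.04 in CPEB4 precipitates over IgG. The medians of all genes were -0.22, -0.23 and -0.03 in the same order.

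**Figure D3:**
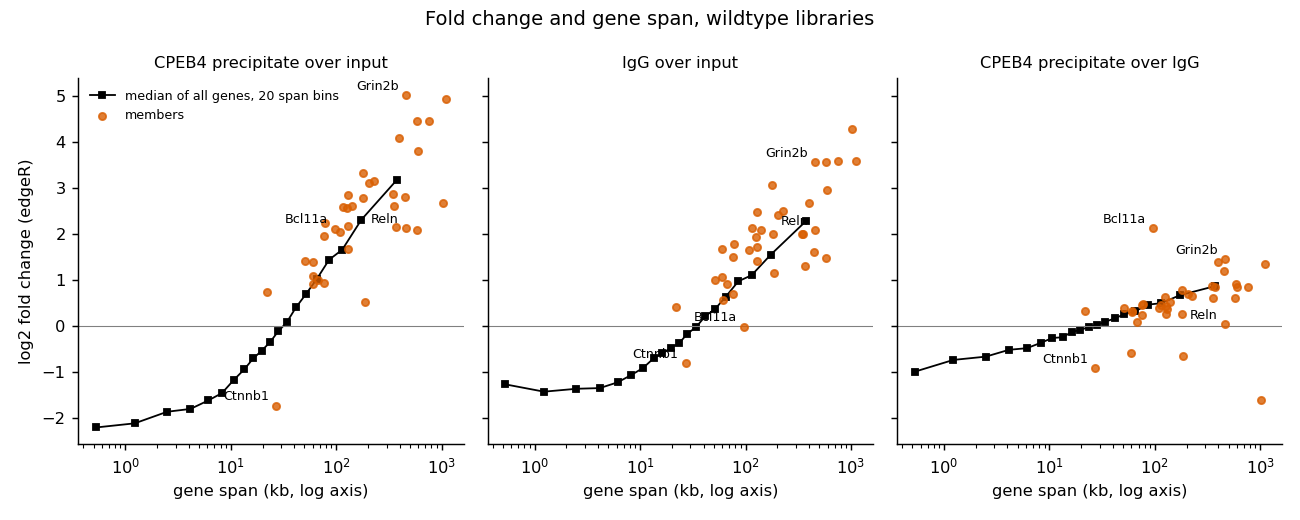
log2 fold change (y axis) against gene span in kb on a log axis (x axis) in 3 comparisons of wildtype RIP libraries, with members as points and the median of all genes in 20 bins of span as squares. The line of all genes is highest in the longest bin of each panel, and runs between -2.20 and 3.17 in CPEB4 precipitates over input, and Bcl11a stands 1.66 above its bin in CPEB4 precipitates over IgG.

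A wider set of 91 autism risk genes outside these members, of which 85 were tested, gave a smaller median. In CPEB4 precipitates over input 43 were higher and 7 lower (median log2 0.91), and in IgG over input 30 were higher and 5 lower (median 0.69). In CPEB4 precipitates over IgG 0 of the 85 passed, with a median of 0.17, 1 higher and 3 lower at an unadjusted p under 0.05. Over all genes, 27.4% were higher and 27.6% lower in CPEB4 precipitates over input, and 18.2% and 15.6% in IgG over input. In CPEB4 precipitates over IgG 0% were called each way, and 3.08% were higher and 4.89% lower at an unadjusted p under 0.05. The spans of the wider set were not compared with those of the members, and the part of span in the smaller median was not tested.

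The cultures set cells held with BMP4, known to bring neural stem cells to rest, against cells held with the growth factor EGF, which keeps them dividing. The BMP4 library held 887 cells and 17313999 counts and the EGF library 1410 cells and 33603623 counts, and with 1 library each there was no test. In the BMP4 culture 11 of the 37 members stood at least 2-fold higher and 1 at least 2-fold lower, against 23.1% and 15.4% of the 14502 genes with 10 or more counts. The median log2 ratio was 0.50 for members and 0.15 for all genes. With TMM factors 7 of the 37 members and 19.2% of all genes were 2-fold or more higher, so the members' count was near the background, and the medians were 0.30 and -0.04. Intervals below are exact, at 95%, and cover counting error only.

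The synaptic, adhesion and neuronal members moved furthest, with 5 of 7 at 2-fold or more higher, against 23.1% of all genes. Their median log2 ratio was 1.40, against 0.15 for all genes. Of the 5, Cntn4 was scarce, with 34 counts with BMP4 and 15 with EGF. Reln had 85 counts (4.91 CPM) with BMP4 and 16 counts (0.476 CPM) with EGF, a ratio of 10.3 (6.00 to 18.9). Among the 718 BMP4 cells and 298 EGF cells without a Mki67, Top2a or Cdk1 count, Reln had 71 and 8 counts and its log2 ratio was 1.91, against 3.33 in all cells. The level of Ank2 was 952 CPM in the BMP4 library and 285 CPM in the EGF library (ratio 3.34, 3.26 to 3.43), and that of Dscam was 44.8 and 17.0 CPM (ratio 2.64, 2.37 to 2.95).

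Grin2b ran the other way, with 14 counts (0.809 CPM) with BMP4 and 88 counts (2.62 CPM) with EGF, a ratio of 0.309 (0.162 to 0.546). It was the member that was 2-fold or more lower. In cells without a count of the 3 cycling genes it had 11 counts with BMP4 and 20 with EGF.

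Among the regulators of transcription, Med13l, a Mediator kinase module subunit gene, reached 74.9 CPM in the BMP4 library, against 26.0 CPM in the EGF library (ratio 2.88, 2.64 to 3.14). Myt1l had 38 counts with BMP4 and 28 with EGF, a ratio of 2.63 (1.57 to 4.46). Zbtb20 had 421 and 196 CPM (ratio 2.15, 2.08 to 2.22). These 3 were higher with BMP4 beyond counting error.

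On the EGF side of the list, Ehmt1, a histone H3 lysine 9 methyltransferase gene, had 25.8 CPM in the BMP4 library and 43.2 CPM in the EGF library (ratio 0.596, 0.535 to 0.663). Bcl11a had 6.64 and 9.58 CPM (ratio 0.693, 0.555 to 0.860). Kdm6b, the gene of a histone H3 lysine 27 demethylase, had 52.3 and 64.4 CPM (ratio 0.813, 0.751 to 0.879). For Asxl3, with 18 and 48 counts, the interval of the ratio spanned 1 (0.398 to 1.27). None of the 8 histone methyl enzymes reached 2-fold in either direction, and their median log2 ratio was 0.13.

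**Figure D4:**
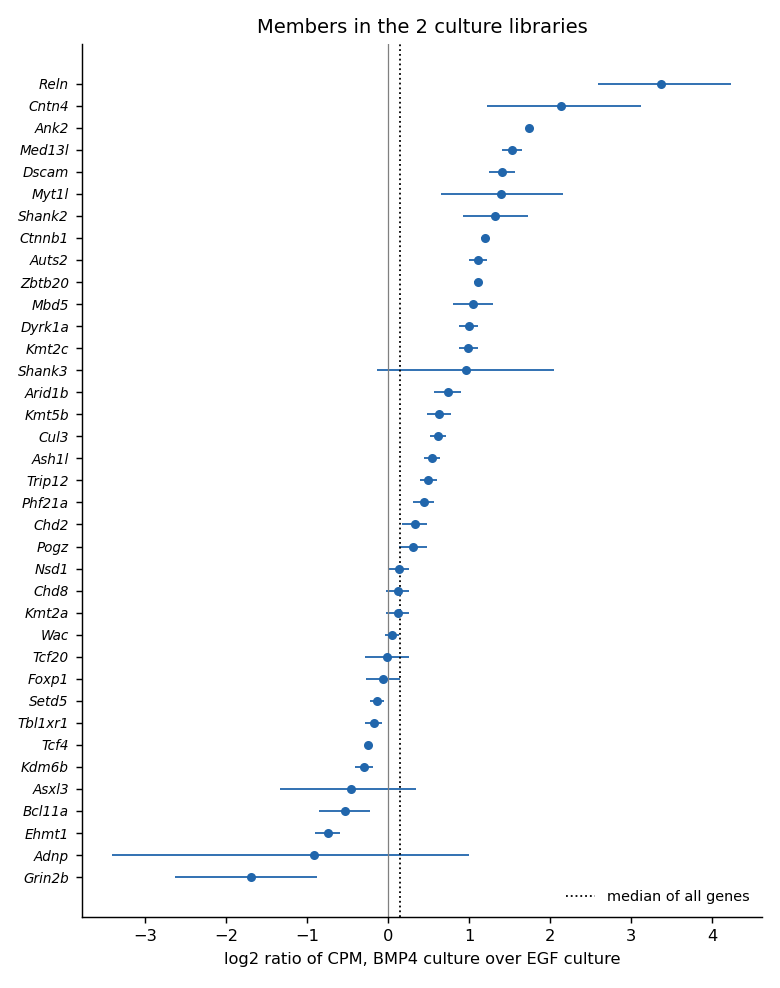
log2 ratio of CPM in the BMP4 culture over the EGF culture for each of the 37 members (points), with exact 95% intervals for counting error (bars), the line of no change (grey) and the median of all genes (dotted, 0.15). Reln is at the top with a ratio of 10.3 and Grin2b at the bottom with 0.309.

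Freshly isolated cells were sequenced far less deeply, with 1879 cells and 1227695 counts in the library labelled knockout (median 424 counts per cell) and 2209 cells and 1133263 counts in wildtype (median 364). These 2 libraries shared 13 cell barcodes. The gene Aplp1, a member of the amyloid precursor protein family, had 54 counts in the knockout-labelled library and 246 in wildtype. Over single mice it had 0, 7 and 0 counts in the knockout-labelled mice and 4, 15 and 22 in the wildtype mice, so the knockout-labelled mouse of tag 2 holds counts of the deleted gene. Values with and without this mouse are given where they bear on a call.

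Cells were assigned to 3 mice of each genotype by their tags, 82 to 239 cells per mouse, and counts were summed per mouse. The assigned cells were 116, 157 and 133 of the 1879 knockout-labelled cells, and 82, 142 and 239 of the 2209 wildtype cells. Cells without an assignment did not enter the test. The mice of each genotype were sequenced as 1 pool, so the comparison of genotypes is also a comparison of pools. An effect of genotype apart from the pool was not tested. Of the 33 members, 13 passed the filter on low counts and 0 were called (edgeR adjusted p under 0.05), as were 0% of the 1109 genes tested. At an unadjusted p under 0.05, 1 member passed, against 5.5% of all genes, and DESeq2 called 0 members. The median log2 fold change was 0.19 for the 13 members and 0.03 for all genes. Without the knockout-labelled mouse of tag 2, 0 members were called.

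The member with the smallest p was Kdm6b, with 7613, 3696 and 7642 CPM in the knockout-labelled mice and 4350, 3562 and 2892 CPM in wildtype mice. The ranges overlapped, and knockout-labelled mouse 2 lay within the wildtype range. Its log2 difference was 0.82 (SE 0.29, edgeR adjusted p = 0.578, unadjusted p = 0.00939). Tcf4, a basic helix-loop-helix transcription factor gene, averaged 4558 ± 144 CPM in knockout-labelled mice and 4158 ± 739 CPM in wildtype mice (SD, n = 3 each). Dyrk1a, a protein kinase gene, averaged 933 ± 194 CPM in knockout-labelled mice and 694 ± 128 CPM in wildtype mice (SD, n = 3 each). Ank2 averaged 930 ± 495 CPM in knockout-labelled mice and 775 ± 67.1 CPM in wildtype mice, and Arid1b, a chromatin remodelling gene, 334 ± 83.6 CPM in knockout-labelled mice and 643 ± 203 CPM in wildtype mice (SD, n = 3 each). None of these differences passed the threshold. The values per mouse are sums over cells of all types, and the part of cell type make-up in them was not tested. Reln had 2 counts in the knockout-labelled library and 1 in wildtype, under the limit of 3 counts that the depth can show.

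Fresh cells were also sorted into classes by clustering without the members, Aplp1 and Cpeb4. A cluster was named where 3 or more of a cell type's listed markers, and at least as many of those detected as not, were raised in it, a rule set after the data were seen, so shares of classes are not compared. Cells per class were 1851 quiescent NSC/astrocyte-like, 719 active NSC/transit amplifying-like, 478 neuroblast-like, 40 mature neuron-like, 72 microglia/macrophage-like and 37 endothelial-like, and 891 stayed unnamed. Class levels are sums over cells of 1 library per genotype and carry no test.

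Bcl11a was highest in neuroblast-like cells, with 1338 CPM in the knockout-labelled library and 1107 CPM in wildtype. It had 359 and 360 CPM in active cells and 16.6 and 15.7 CPM in quiescent cells. The 2 libraries gave the same order of these 3 classes. In microglia/macrophage-like cells it had 0 counts in both libraries, where 3 counts would be 126 and 197 CPM.

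Foxp1, Myt1l and Grin2b were highest in mature neuron-like cells. Foxp1 had 4453 and 3839 CPM there, in knockout-labelled and wildtype cells, against 228 and 226 CPM in neuroblast-like cells. In endothelial-like cells Foxp1 had 2373 and 1392 CPM (16 and 7 counts). Myt1l had 24 and 8 counts in mature neuron-like cells, 3 and 19 counts in neuroblast-like cells and 0 counts in active, quiescent and microglia/macrophage-like cells in both libraries. Grin2b had 575 and 433 CPM in mature neuron-like cells. The values in mature neuron-like cells rest on 26 knockout-labelled and 14 wildtype cells.

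Kdm6b was highest in microglia/macrophage-like cells, with 24808 CPM in the knockout-labelled library and 19538 CPM in wildtype, from 592 and 297 counts. It had 5932 and 2188 CPM in endothelial-like cells (40 and 11 counts), 4001 and 2797 CPM in neuroblast-like cells and 1243 and 714 CPM in quiescent cells. Tcf4 had 4795 and 5056 CPM in neuroblast-like cells, 3240 and 3404 CPM in quiescent cells, and 86.2 and 372 CPM (3 and 6 counts) in mature neuron-like cells. Arid1b had 1269 and 1209 CPM in neuroblast-like cells and 256 and 260 CPM in quiescent cells. In mature neuron-like cells it had 862 and 1486 CPM (30 and 24 counts), so its highest class differed between the libraries. Ank2 had 967 and 1092 CPM in quiescent cells and 272 and 263 CPM in active cells.

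**Figure D5:**
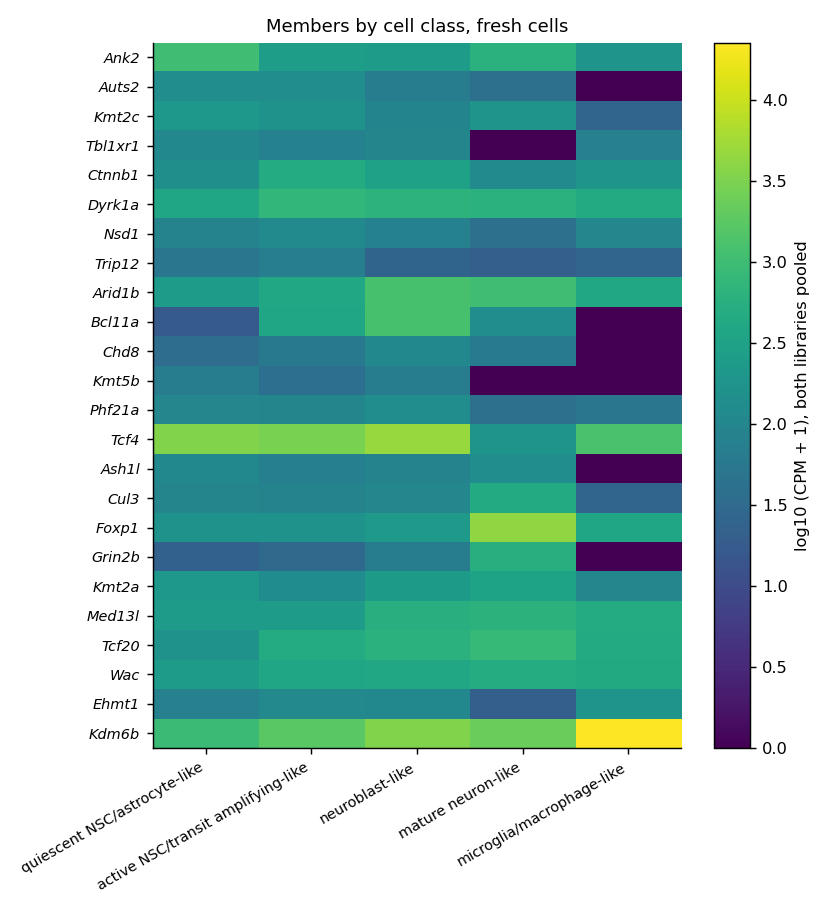
log10 (CPM + 1) of the 24 members with 100 or more counts (rows) in 5 cell classes of the fresh cells (columns), both libraries pooled, with rows ordered by which of these 5 classes had the highest level. Endothelial-like and unnamed cells are not shown. Bcl11a is brightest in neuroblast-like cells, Foxp1 in mature neuron-like cells and Kdm6b in microglia/macrophage-like cells, where it reaches 22758 CPM.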

How the data were processed

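The authors deposited raw read or molecule counts for each gene in each RIP library or cell, and for each hash tag and barcode. Per the submitters' processing notes the build was mm10 and the tools included Bowtie2, SAMtools and Cell Ranger; the annotation, strand setting and tool versions were not given in the sources used here. Gene names came from a gene name table and positions from RefSeq annotation of GRCm38.p6. The members and lists were chosen with earlier results of these data known.

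RIP counts of 17062 genes kept by filterByExpr were tested in edgeR 4.0.16 (TMM, quasi-likelihood, Benjamini-Hochberg adjusted p under 0.05), with 4 groups in 1 fit. Alternatives were DESeq2 1.42.0, RLE factors, total library size, no filter, a replicate block, the compared groups only, a gene span offset and each library left out. Culture counts were summed per library and ratios taken with a pseudocount of 0.5 counts in log values. Fresh cells with 10 or more tag counts, 75% or more of 1 tag, were summed per mouse and tested in edgeR. Cells were clustered in scanpy 1.11.5 (2000 variable genes, 30 components, 15 neighbours, resolution 1), and neither doublets nor free RNA were removed. The tests were checked on simulated counts. Named genes were members past the threshold, up to 8 each way, the 5 largest culture ratios each way among members with 50 or more counts, the 5 most abundant fresh members, Reln and Zbtb20; Cpeb4 and Aplp1 check the labels. No sequence is printed.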

Additional observations from a re-analysis of the deposited data

How the results depend on the processing

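Depth limits the scarce members (Myt1l, Reln and Grin2b in input, most members in fresh cells), 2 replicates limit the RIP tests, and with 1 library per culture no spread between cultures is known. The number of members called higher in CPEB4 precipitates over input was 28 (27.4% of all genes). It was 6 with total library size (6.38% of all genes) and 5 with the gene span offset (17%). When 1 library was left out the members' median log2 fold change was 2.18 to 2.46, against -0.13 to -0.03 for all genes. The number of members called lower was 1 (27.6% of all genes), and 2 with the gene span offset (23.6%). In IgG over input 24 were higher, and 0 with total library size, 2 with the gene span offset and 5 to 13 when a library was left out; 0 were lower, and 6 with total library size and 1 (Ctnnb1) without the knockout-labelled libraries, a fit chosen after seeing the data. In CPEB4 precipitates over IgG 0 were higher, and 1 (Bcl11a) with no filter and 1 with only the groups compared. Over all genes, those 2 fits called 50 higher and 115 lower, and 157 higher and 377 lower, DESeq2 called 5 and 9, and the fit without the knockout-labelled libraries called 58 and 252. In knockout-labelled over wildtype precipitates 0 were higher, and 2 (Asxl3 and Cntn4) with no filter. The labels do not say that a RIP replicate number marks a shared culture or day. Deviations of same-numbered libraries correlated at 0.10 to 0.33 in the 3 pairs of groups among input and both CPEB4 precipitates, and at -0.37 to -0.18 in the 3 pairs with IgG, and the libraries were not treated as paired. With a replicate block 28 members were higher and 1 lower in CPEB4 precipitates over input, against 26.9% and 26.5% of all genes. In IgG over input 21 members were then higher, against 18% of all genes. With this block 0 members were called in the other RIP comparisons and in fresh cells. In cultures 11 of 37 members were 2-fold or more higher (23.1% of all genes), and 7 with TMM factors (19.2% of all genes). In fresh cells 0 members were called in any of the fits.

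Some log2 fold changes of named members changed sign, and the cause was not tested. In CPEB4 precipitates over IgG these were, with the gene span offset, Zbtb20 (-0.056), Foxp1 (-0.024), Tcf20 (-0.39), Kmt2c (-0.072) and Reln (-0.77), Ctnnb1 with total library size (0.12), and Reln when 1 library was left out (-0.33 to 0.34). With the gene span offset Reln was -0.96 in CPEB4 precipitates over input and -0.18 in IgG over input, and with total library size it was -0.41 in IgG over input. Bcl11a in IgG over input was 0.0096 with DESeq2, 0.0502 with RLE factors and 0.12 with only the groups compared, and between -1.54 and 0.75 when a library was left out. In knockout-labelled over wildtype precipitates Zbtb20 was 0.094 with the gene span offset and between -0.77 and 0.32 when a library was left out, Reln -0.23 to 0.79, Asxl3 -1.29 to 2.98 and Cntn4 -1.17 to 3.30. In fresh cells Tcf4 was -0.14 and Ank2 -0.069 with 3 or more tag counts, and when a mouse was left out Tcf4 was -0.033 to 0.27 and Ank2 -0.30 to 0.50.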
